A study of Rattus norvegicus with 12 samples.

Results

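The cell cycle and DNA replication genes described here were 40 genes picked by symbol, of which 39 were among the 17310 genes of the files. Cenpe, which encodes a kinesin of the kinetochore, was not analysed here. The members were sorted by role into 16 genes of mitosis, 11 cyclins and cyclin-dependent kinases, 10 genes of DNA replication and 2 inhibitors of the kinases. The hypothalamus around the paraventricular nucleus (PVH) was sampled in wild type male Wistar rats aged 12 weeks, and mRNA was sequenced in 12 libraries, 2 for each of 6 groups. The groups were rats under high corticosterone for 12 days (high Cort), rats 3 h after acute corticosterone (3 h acute), rats 1 h after it (1 h acute), adrenalectomised rats supplemented with corticosterone (supplemented ADX), rats 7 days after adrenalectomy (ADX) and sham-operated rats (sham). In rats the main glucocorticoid is corticosterone, and adrenalectomy removes its source. The labels give neither dose nor route, and name no vehicle group. The titles leave unsaid whether the high Cort rats and the acutely treated rats had been operated on. They give no duration for the supplement, and mark both acute groups (1) without saying what it means. The labels do not tell if a library stands for 1 rat or a pool. The p values here reflect the spread between libraries alone, which may be technical.

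Dividing cells pass through a growth phase, DNA synthesis and mitosis. D-type cyclins with Cdk4 or Cdk6, and then cyclin E with Cdk2, start the cycle, while the MCM helicase, the clamp Pcna and the enzymes of nucleotide synthesis serve the copying of DNA. Cyclins A and B with Cdk1, the Aurora and Polo kinases, kinesins and checkpoint proteins carry the cell through mitosis. Most neurons of the adult hypothalamus do not divide, whereas oligodendrocyte precursors, tanycytes of the ventricle wall, microglia and vessel cells can.

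The libraries held between 17674161 and 36249008 fragments assigned to genes. Markers of PVH neurons were present in every library, with Crh at 2.35 to 26.9 CPM (fragment counts scaled to library size, with TMM factors), Avp at 58.1 to 201.3 CPM and Sim1 at 36.5 to 54.0 CPM. A thalamus score, the mean log2 CPM of 17 markers of the neighbouring thalamus, differed between groups. It was 6.45 and 6.42 in high Cort, 5.53 and 5.63 in 3 h acute, 5.68 and 5.02 in 1 h acute, 5.99 and 5.97 in supplemented ADX, 5.88 and 6.02 in ADX, and 6.09 and 6.59 in sham. Where adding this score to the model ended the call of a member, the value with it is given beside the result.

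Per transcript length, mitosis genes were mostly the lowest members in sham tissue. By the mean of the sham libraries, the kinase inhibitor Cdkn1b was the highest. Levels are compared between genes in the deposited FPKM (fragments per transcript length and depth). In sham, 19 of the 39 members (48.7%) averaged under 1 FPKM, against 1344 of the 12856 genes tested (10.45%). The median was 1.53 FPKM over the members and 12.84 FPKM over the genes tested. Of the 16 mitosis genes 13 averaged under 1 FPKM, as did 4 of the 11 cyclins and kinases, 2 of the 10 replication genes and neither inhibitor.

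The lowest mitosis gene was Bub1b, a checkpoint protein of the spindle, at 0.0741 and 0.146 FPKM in the sham libraries, and the highest was Aurkb, an Aurora kinase, at 38.7 and 25.8 FPKM. Among cyclins and kinases, Cdk1, the mitotic kinase, had 0.241 and 0.149 FPKM, and Ccnd2, cyclin D2, had 25.0 and 25.9 FPKM. Among replication genes, Mcm5, a subunit of the replicative helicase, had 0.652 and 0.823 FPKM, and Pcna had 17.3 and 17.5 FPKM. D-type cyclins and Cdk4, which act at the start of the cycle and are also made in cells that do not divide, thus stood far above the mitotic cyclins and Cdk1 per transcript length. The lowest of them, Ccnd3, averaged 10.8 FPKM, and the highest cyclin of mitosis, Ccnb1, averaged 0.818 FPKM. Cdkn1a, the inhibitor p21, had 3.73 and 3.52 FPKM, and Cdkn1b, the inhibitor p27, had 35.6 and 37.2 FPKM.

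**Figure D1:**
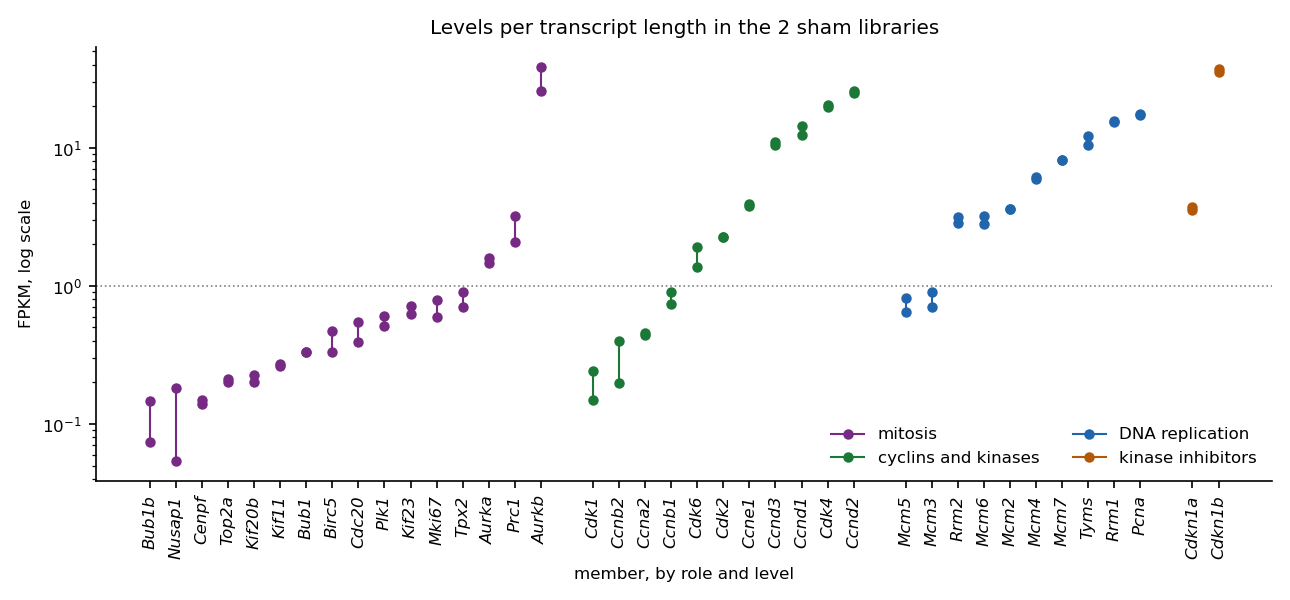
FPKM (log scale) of each of the 39 members in the 2 sham libraries, ordered by role and then by mean level; points are libraries and the dotted line marks 1 FPKM. Most mitosis genes lie under the line, with Aurkb at 38.7 and 25.8 FPKM and Prc1, the next highest mitosis gene, at a mean of 2.64 FPKM.

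All 39 members passed the filter on low counts, but 7 of them (Top2a, Bub1b, Birc5, Nusap1, Ccna2, Ccnb2 and Cdk1) had fewer than 10 fragments in at least 1 library. Cdk1 had 2 to 12 fragments a library, Nusap1, a microtubule binding protein of the spindle, had 2 to 18, and Birc5, the passenger complex protein survivin, had 3 to 15. Among genes this low only large differences were detectable at this depth.

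Aurkb stood apart from its partners in the chromosomal passenger complex. It had 71.1 and 40.5 CPM in high Cort, 44.3 and 56.5 in 3 h acute, 51.4 and 50.4 in 1 h acute, 75.7 and 48.6 in supplemented ADX, 67.2 and 55.0 in ADX, and 62.5 and 41.9 in sham. In every group but 1 h acute its replicates differed by more than any of its group means did. Over the 12 libraries it ranged between 25.0 and 47.8 FPKM, against 5.42 to 6.79 FPKM for Incenp, 0.319 to 0.955 FPKM for Cdca8 and 0.260 to 0.686 FPKM for Birc5. Aurkb was called in no comparison, and sums over mitosis genes are given below without it, a choice made after its values were seen.

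**Figure D2:**
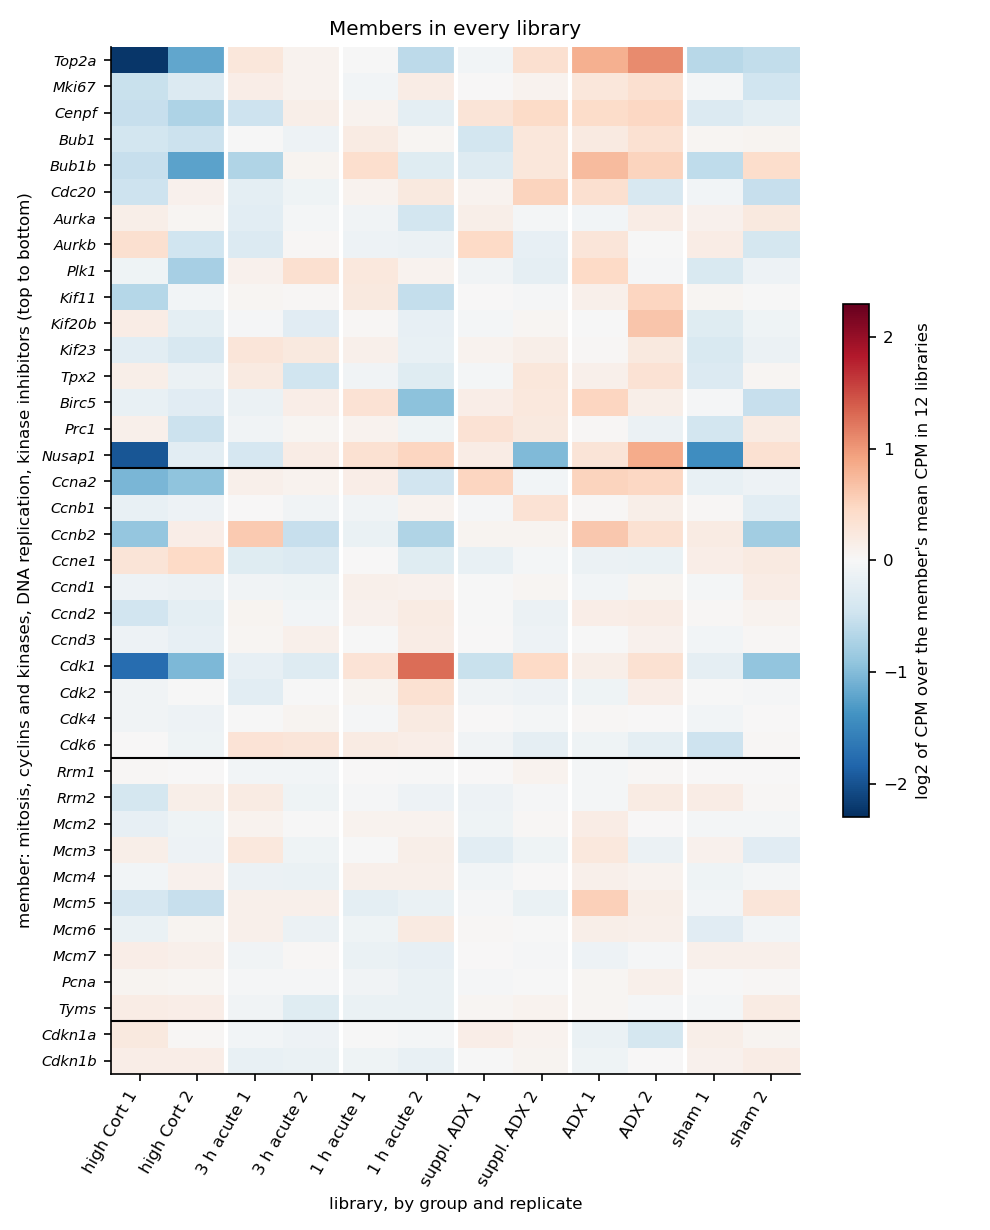
Log2 of the CPM of each member in each library over the mean CPM of that member in the 12 libraries (red higher, blue lower), with members in rows by role and libraries in columns by group. The darkest blue is the first high Cort library for Top2a (0.324 CPM), and most cells of the DNA replication genes are pale.

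One model of all 12 libraries was asked which members varied among the 6 groups at all. Of the 39, 6 members did: Top2a (adjusted p = 0.00136), Cdkn1b (0.00572), Ccnd2 (0.00819), Ccne1 (0.0145), Mki67 (0.0161) and Cenpf (0.0249), by edgeR's quasi-likelihood test with Benjamini-Hochberg adjustment over the 12856 genes tested. They were 6 of 39 members (15.38%), where 12.9% of all genes tested were called. DESeq2 called 4 of the 39, where it called 13.1% of all genes tested. With the thalamus score in the model, Top2a alone was called, where 1.63% of all genes tested were. Without the first high Cort library 3 members were called (Ccne1, Cdkn1b and Top2a). In pairs of groups, 13 calls were made over 9 members.

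High Cort against ADX asked how the members differed between excess and loss of the hormone. Of the 16 mitosis genes 3 fell in high Cort (Top2a, Mki67 and Cenpf). Top2a, the topoisomerase that untangles sister chromatids, stood at 0.495 ± 0.242 CPM in high Cort and 2.95 ± 0.372 CPM in ADX (SD, n = 2 each). Mki67 is the antigen Ki-67 that coats mitotic chromosomes, and Cenpf is a kinetochore protein. Ccna2, cyclin A2, also fell, as did Ccnd2 and Mcm5, while Ccne1, cyclin E1, rose. These 7 calls were 17.95% of the 39 members, against 5.77% of all genes tested. The members were chosen with earlier results of these data known, so such shares, here and elsewhere, are not a test of the set. DESeq2 called 4 of the 7 (Top2a, Mki67, Cenpf and Ccnd2), where it called 5.25% of all genes tested. With the thalamus score 3 members were called (Top2a, Cenpf and Ccnd2), where 2.1% of all genes tested were. When any one of the 4 libraries was left out 2 to 3 members were called, always with Top2a and Ccnd2, where 1.2% to 2.98% of all genes tested were (157 to 386 genes). Of the members 6 fell and 1 rose, where 2.27% of all genes tested were called lower and 3.5% higher. The median log2 fold change was -0.20 over the 39 members and 0.01 over all genes tested. In tissue RNA, fewer cells of a type and less RNA per cell cannot be told apart.

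By role, the median log2 fold change of high Cort over ADX was -0.58 over the 16 mitosis genes, of which 15 were below 0 and 3 were called, all lower. It was -0.19 over the 11 cyclins and kinases (9 below 0, 2 called lower and 1 higher), -0.07 over the 10 replication genes (7 below 0, 1 called lower) and 0.29 over the 2 inhibitors (both above 0, neither called). Both high Cort libraries lay below both ADX libraries in 21 of 39 members and above them in 5, orders that 24.1% and 29.7% of all genes tested showed.

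**Figure D3:**
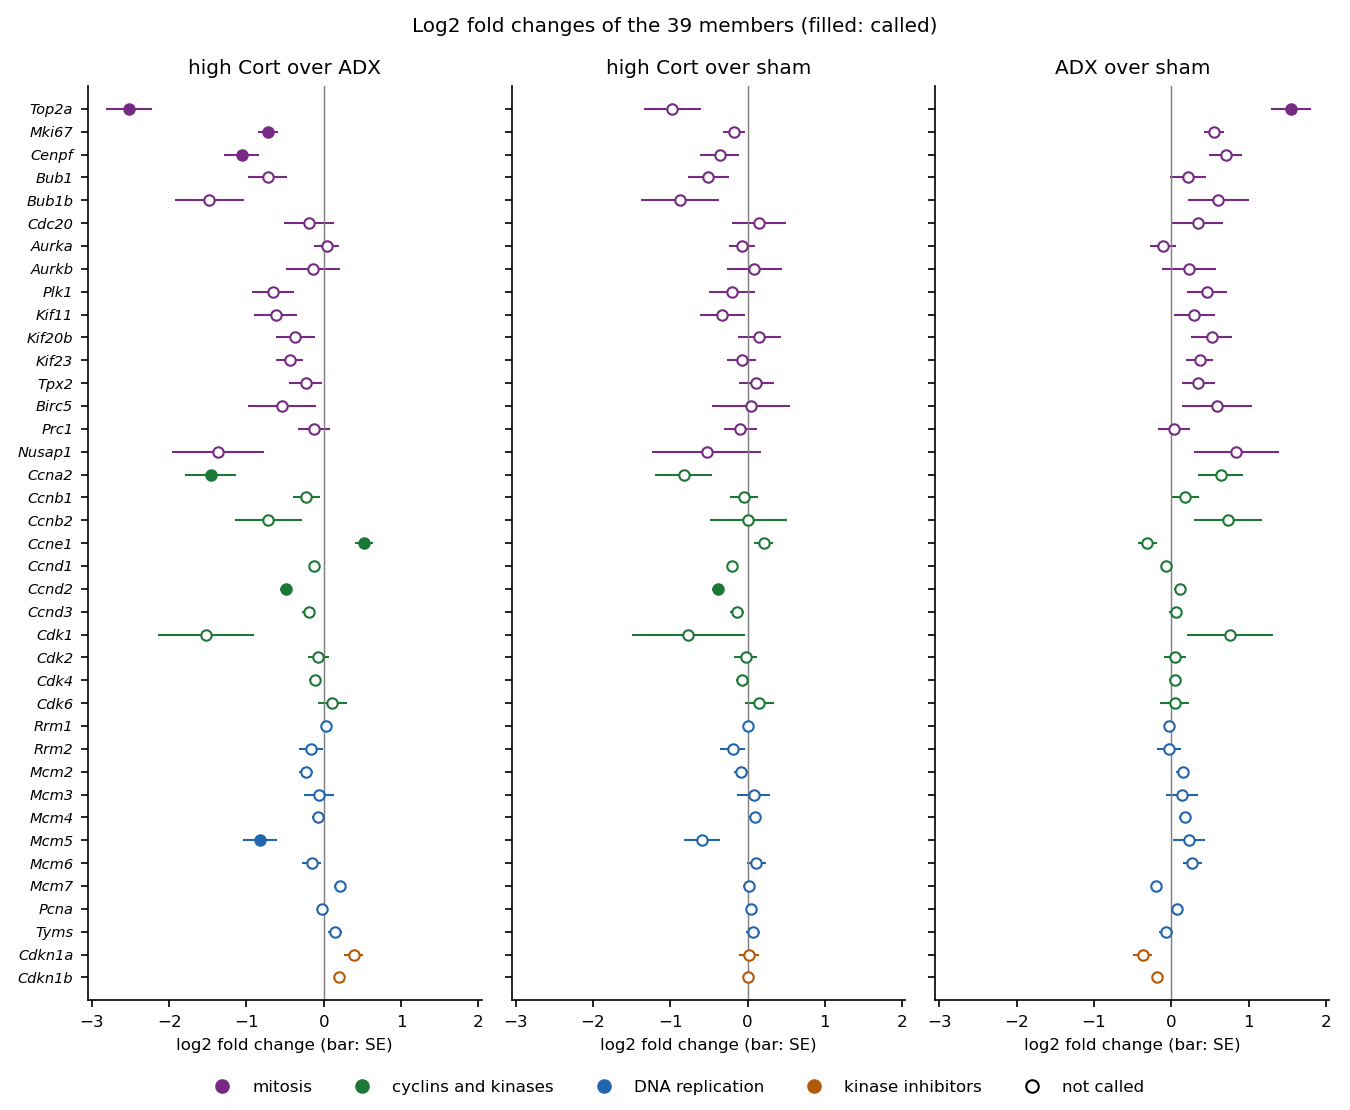
Log2 fold change (point) and its standard error (bar) of each of the 39 members for high Cort over ADX, high Cort over sham and ADX over sham, coloured by role; filled points are called and open points are not. The 7 filled points in the panel of high Cort over ADX run between -2.52 for Top2a and 0.52 for Ccne1, and the 3 panels share libraries.

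Top2a had 0.324 and 0.666 CPM in high Cort, 1.83 and 1.60 in 3 h acute, 1.51 and 0.998 in 1 h acute, 1.45 and 1.97 in supplemented ADX, 2.69 and 3.21 in ADX, and 0.981 and 1.025 in sham. These rest on 8 and 20 fragments in high Cort, 90 and 101 in ADX, and 25 and 28 in sham. The high Cort pair was the lowest and the ADX pair the highest of the 6 groups, and neither overlapped another group. Top2a fell 5.74-fold in high Cort relative to ADX (log2 fold change -2.52 ± 0.30 SE, adjusted p = 0.000195, edgeR's quasi-likelihood test with Benjamini-Hochberg adjustment, as for all adjusted p values here unless DESeq2 is named). Whichever of the 4 libraries was left out, it stayed called, with a log2 fold change of -3.18 to -2.15.

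Mki67 had 5.63 and 6.46 CPM in high Cort, 8.92 and 8.55 in 3 h acute, 7.69 and 9.04 in 1 h acute, 8.10 and 8.51 in supplemented ADX, 9.62 and 10.37 in ADX, and 7.81 and 5.89 in sham. The ADX pair lay above every other library, and the high Cort pair overlapped sham only. Mki67 was 1.65-fold lower in high Cort than in ADX (-0.72 ± 0.13, adjusted p = 0.00452). The call was lost without the first high Cort library (-0.64, adjusted p = 0.073) and with the thalamus score in the model (-0.49, adjusted p = 0.111).

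Cenpf had 1.21 and 1.065 CPM in high Cort, 1.25 and 1.91 in 3 h acute, 1.85 and 1.497 in 1 h acute, 2.13 and 2.38 in supplemented ADX, 2.33 and 2.42 in ADX, and 1.41 and 1.5 in sham. The ADX and supplemented ADX libraries were the highest 4 and the high Cort libraries the lowest 2. Cenpf was 2.09-fold lower in high Cort than in ADX (-1.06 ± 0.22, adjusted p = 0.0111), with an adjusted p of 0.0602 to 0.0971 when any one of the 4 libraries was left out.

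Other mitosis genes pointed the same way without passing the test. Bub1b had 0.324 and 0.200 CPM in high Cort, 0.289 and 0.490 in 3 h acute, 0.617 and 0.388 in 1 h acute, 0.383 and 0.563 in supplemented ADX, 0.776 and 0.668 in ADX, and 0.314 and 0.622 in sham. Its log2 fold change of high Cort over ADX was -1.48 ± 0.45 (adjusted p = 0.0649). That of Bub1, its partner checkpoint kinase, was -0.73 ± 0.25 (adjusted p = 0.105), that of Plk1, the Polo kinase, -0.66 ± 0.27 (adjusted p = 0.174), and that of Kif11, the kinesin that pushes spindle poles apart, -0.62 ± 0.28 (adjusted p = 0.213). Aurka, the Aurora kinase of the spindle poles, was the exception in sign at 0.04 ± 0.17 (adjusted p = 0.933). Prc1, which bundles microtubules of the midzone, stood at -0.12 ± 0.21 (adjusted p = 0.804). The kinesins Kif23 and Kif20b, the spindle proteins Tpx2 and Nusap1, Cdc20, an activator of the anaphase-promoting complex, Birc5 and Aurkb lay between -1.37 ± 0.60 for Nusap1 and -0.14 ± 0.35 for Aurkb, none called.

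Among the cyclins, Ccna2 had 0.364 and 0.399 CPM in high Cort, 0.819 and 0.801 in 3 h acute, 0.833 and 0.555 in 1 h acute, 1.067 and 0.720 in supplemented ADX, 1.075 and 1.05 in ADX, and 0.667 and 0.695 in sham. The high Cort pair was the lowest, at 9 and 12 fragments. Ccna2, which works in DNA synthesis and entry into mitosis, was 2.75-fold lower in high Cort than in ADX (-1.46 ± 0.33, adjusted p = 0.0164). The call was lost when any one of the 4 libraries was left out (adjusted p = 0.0788 to 0.127), with the thalamus score (0.0522) and in DESeq2 (0.103).

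Ccnd2 had 21.8 and 25.4 CPM in high Cort, 31.2 and 28.4 in 3 h acute, 31.7 and 33.7 in 1 h acute, 29.7 and 27.0 in supplemented ADX, 33.1 and 33.5 in ADX, and 30.2 and 31.4 in sham. Both high Cort libraries lay below every other library. Ccnd2 was 1.41-fold lower in high Cort than in ADX (-0.49 ± 0.08, adjusted p = 0.00202) and stayed called whichever of the 4 libraries was left out. Of the other D-type cyclins, Ccnd1 stood at -0.13 ± 0.07 (adjusted p = 0.285) and Ccnd3 at -0.19 ± 0.08 (adjusted p = 0.199).

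Ccne1 was the one member called higher in high Cort than in ADX. It had 7.24 and 8.15 CPM in high Cort, 4.87 and 4.76 in 3 h acute, 5.96 and 4.88 in 1 h acute, 5.25 and 5.76 in supplemented ADX, 5.41 and 5.35 in ADX, and 6.55 and 6.81 in sham. The high Cort pair lay above every other library and the sham pair came next. Ccne1 was 1.44-fold higher in high Cort than in ADX (0.52 ± 0.12, adjusted p = 0.0179). The adjusted p was 0.0628 to 0.185 when any one of the 4 libraries was left out, 0.101 in DESeq2, and 0.284 with the thalamus score, which is higher in high Cort than in ADX.

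The kinases and the B-type cyclins gave no call. Cdk1 had 0.0809 and 0.133 CPM in high Cort, 0.241 and 0.223 in 3 h acute, 0.340 and 0.665 in 1 h acute, 0.192 and 0.375 in supplemented ADX, 0.299 and 0.350 in ADX, and 0.235 and 0.146 in sham. Its log2 fold change of high Cort over ADX was -1.53 ± 0.62 (adjusted p = 0.173), and at 2 and 4 fragments in high Cort the error was wide. Cdk2, Cdk4 and Cdk6 lay between -0.11 and 0.11, and the mitotic cyclins Ccnb1 and Ccnb2 stood at -0.23 ± 0.18 and -0.72 ± 0.44.

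Replication genes differed little in their sum. It was 143.1 and 147.4 CPM in high Cort, 146.1 and 146.9 in ADX, and 141.6 and 145.3 in sham. All 12 libraries lay between 135.1 and 147.4 CPM. Rrm1 alone averaged 44.4 CPM in high Cort and 43.4 CPM in ADX, so the sum says little of low genes such as Mcm5. Pcna had 17.3 and 17.1 CPM in high Cort, 16.2 and 16.1 in 3 h acute, 15.6 and 14.9 in 1 h acute, 16.2 and 16.5 in supplemented ADX, 17.1 and 17.9 in ADX, and 16.4 and 16.7 in sham, with a log2 fold change of high Cort over ADX of -0.02 ± 0.07. Rrm1, the large subunit of ribonucleotide reductase, stood at 0.03 ± 0.05. The sum over the 15 mitosis genes without Aurkb was 29.7 and 26.8 CPM in high Cort, 39.6 and 41.8 in ADX, and 29.7 and 32.7 in sham. With Aurkb it was 100.8 and 67.4 CPM in high Cort, 106.7 and 96.8 in ADX, and 92.1 and 74.5 in sham, and high Cort overlapped both other groups.

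Mcm5 was the one replication gene called. It had 1.21 and 1.098 CPM in high Cort, 1.735 and 1.736 in 3 h acute, 1.36 and 1.44 in 1 h acute, 1.56 and 1.44 in supplemented ADX, 2.33 and 1.75 in ADX, and 1.53 and 1.94 in sham. The high Cort pair was the lowest. Mcm5 was 1.77-fold lower in high Cort than in ADX (-0.83 ± 0.22, adjusted p = 0.0411), and the call was lost when any one of the 4 libraries was left out (adjusted p = 0.0522 to 0.325), with the thalamus score (0.201) and in DESeq2 (0.212). Of the other helicase subunits, Mcm2 stood at -0.23 ± 0.09 (adjusted p = 0.142) and Mcm7 at 0.21 ± 0.07 (adjusted p = 0.116). Mcm3, Mcm4, Mcm6, Rrm2, the small subunit of ribonucleotide reductase, and Tyms, the thymidylate synthase, lay between -0.16 and 0.14, none called.

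Both kinase inhibitors were on the other side of 0 from the mitosis genes but did not pass the test. Cdkn1a, whose gene is known to respond to p53 and to glucocorticoids, had 6.56 and 5.72 CPM in high Cort, 5.35 and 5.16 in 3 h acute, 5.56 and 5.43 in 1 h acute, 6.21 and 5.91 in supplemented ADX, 5.08 and 4.26 in ADX, and 6.20 and 5.89 in sham. The ADX pair was the lowest. Its log2 fold change of high Cort over ADX was 0.39 ± 0.13 (adjusted p = 0.0831), and that of Cdkn1b was 0.19 ± 0.05 (adjusted p = 0.0521).

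**Figure D4:**
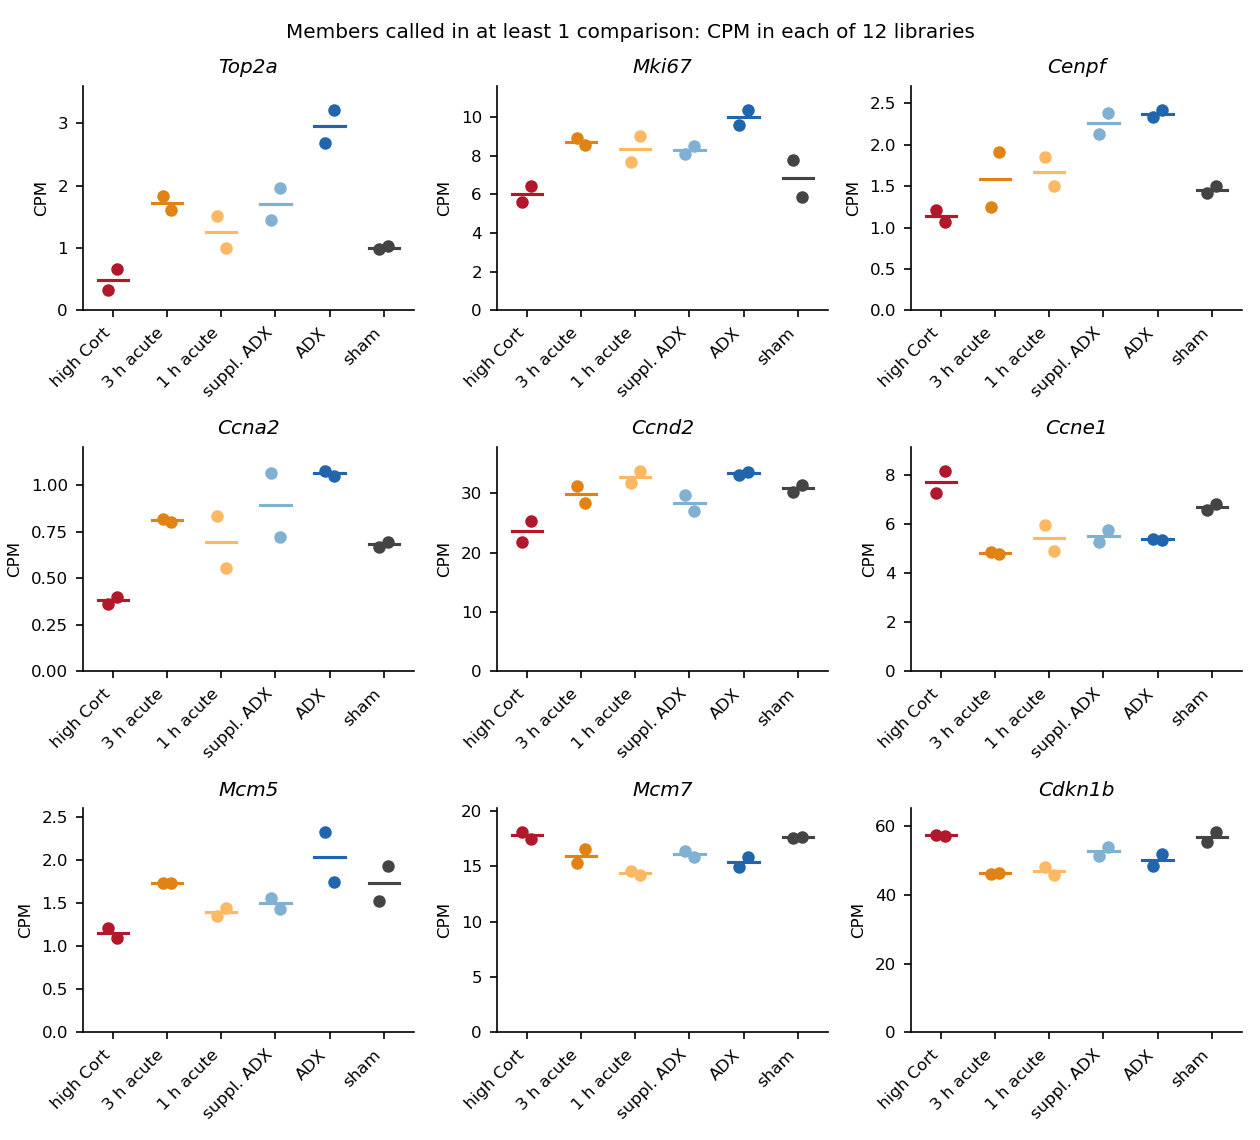
CPM of the 9 members called in at least 1 comparison in each of the 12 libraries; points are libraries, lines are group means and each axis starts at 0. Top2a, Mki67, Cenpf and Ccna2 are lowest in high Cort and highest in ADX, Ccne1 is highest in high Cort (7.24 and 8.15 CPM), Mcm7 is lowest in 1 h acute and Cdkn1b in both acute groups.

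The promoters of the called members that were lower in high Cort than in ADX are shown for the elements known from cell cycle genes. Of the 39 members 31 had a promoter in RefSeq's GRCr8 tables, matched by symbol, and among the 6 members called lower these were Top2a, Mki67, Cenpf and Mcm5. Each sequence is the 250 bases before the annotated start, 5′ to 3′ on the gene's strand, with motif matches in capitals. The motifs, read on both strands, were the CCAAT box (CCAAT), the cell cycle homology region (TTTGAA or TTCGAA) and the E2F site (TTTCGCGC or TTTGGCGC).
Top2a, chr10:84473094-84473343, minus strand: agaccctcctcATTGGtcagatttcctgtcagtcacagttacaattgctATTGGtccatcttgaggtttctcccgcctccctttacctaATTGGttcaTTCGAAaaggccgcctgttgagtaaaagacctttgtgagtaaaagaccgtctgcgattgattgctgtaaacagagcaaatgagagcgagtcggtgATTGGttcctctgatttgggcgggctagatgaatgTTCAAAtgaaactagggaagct
Mki67, chr1:199952594-199952843, minus strand: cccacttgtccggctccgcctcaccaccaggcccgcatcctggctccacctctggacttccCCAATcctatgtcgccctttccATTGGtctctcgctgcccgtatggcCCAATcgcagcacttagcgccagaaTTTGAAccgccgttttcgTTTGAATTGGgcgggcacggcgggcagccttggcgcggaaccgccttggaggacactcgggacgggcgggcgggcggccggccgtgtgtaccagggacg
Cenpf, chr13:103760887-103761136, minus strand: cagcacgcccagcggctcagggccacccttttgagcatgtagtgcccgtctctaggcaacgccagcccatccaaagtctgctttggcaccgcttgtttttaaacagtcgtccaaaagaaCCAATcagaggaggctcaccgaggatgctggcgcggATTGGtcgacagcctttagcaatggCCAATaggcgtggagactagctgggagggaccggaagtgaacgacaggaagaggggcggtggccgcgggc
Mcm5, chr19:13488563-13488812, plus strand: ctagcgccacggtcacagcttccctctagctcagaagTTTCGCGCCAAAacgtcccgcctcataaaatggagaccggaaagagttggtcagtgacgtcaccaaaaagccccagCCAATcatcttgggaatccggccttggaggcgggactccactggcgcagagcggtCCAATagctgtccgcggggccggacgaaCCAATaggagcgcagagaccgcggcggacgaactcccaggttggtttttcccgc

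The Top2a window held 4 CCAAT boxes, all as ATTGG, and 2 cell cycle homology regions, the nearer one starting 22 bases before the start. The Mki67 window also held 4 CCAAT boxes and 2 homology regions, of which one shares bases with a CCAAT box. The Cenpf window held 3 CCAAT boxes and neither other motif, and the Mcm5 window held 3 CCAAT boxes and 2 E2F matches that overlap each other. The CCAAT box was in 23 of the 31 member promoters (74.2%) and in 34.02% of 33469 promoters of the same length, and the homology region in 13 of 31 (41.9%) against 17.37%. The E2F site was in 6 of 31 (19.35%), namely those of Mcm2, Mcm5, Mcm6, Mcm7, Tyms and Cdk1, against 0.636%. The short motif of the glucocorticoid receptor, AGAACA on both strands, was in 3 of 31 (9.68%), those of Ccne1, Plk1 and Bub1, against 17.52%. Such matches describe the letters of these windows and are not binding sites.

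Further genes of the cell cycle were read from 4 lists, which were also written with earlier results of these data known. For high Cort over ADX, 5.77% of all genes tested were called and 52.88% were above 0. Of 33 tested genes of mitosis that are not members, 26 were below 0 for high Cort over ADX, with a median of -0.21, and 2 were called. Ect2, the exchange factor that starts cytokinesis, fell to 0.413 CPM in high Cort, against 1.22 CPM in ADX (-1.60 ± 0.39, adjusted p = 0.024). Cit, the gene of citron kinase, which neurons also transcribe, rose to 910 CPM in high Cort, against 573.8 CPM in ADX (0.67 ± 0.14, adjusted p = 0.0377). In sham it averaged 121.3 FPKM, the highest of its list, where 31 of 44 genes averaged under 1 FPKM. Counts per gene do not tell its transcripts apart, so the rise cannot be read as one of the kinase.

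Of 53 tested genes of DNA synthesis that are not members, 33 were below 0, with a median of -0.07, and 1 was called. This was E2f1, a transcription factor of the start of S phase, at 8.96 CPM in high Cort and 5.20 CPM in ADX (0.78 ± 0.14, adjusted p = 0.00368). Of 11 further inhibitors 1 was called: Rbl1, the pocket protein p107, at 6.08 CPM in high Cort and 8.38 CPM in ADX (-0.46 ± 0.12, adjusted p = 0.0405). Of 12 p53 targets 1 was called: Ccng1, cyclin G1, at 236.4 CPM in high Cort and 167.9 CPM in ADX (0.49 ± 0.09, adjusted p = 0.0108). E2f1, Cit and Ccng1, the genes of these lists called higher, were lower in 1 h acute than in sham. Their means there were 3.87 and 7.596 CPM for E2f1, 482.4 and 752.0 for Cit, and 142.1 and 209.6 for Ccng1. The thalamus score was also higher in high Cort than in ADX and lower in 1 h acute than in sham. Values with that score in the model are given here for members alone, and its part in these calls was not tested.

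Some markers of cells that can divide, or of cells newly formed from them, were also called in high Cort over ADX, and their part in the result was not tested. Of 10 tested markers of neural progenitors 2 fell in high Cort relative to ADX, Nes (-1.03 ± 0.09, adjusted p = 1.11e-05), the filament nestin, and Fabp7 (-0.55 ± 0.10, adjusted p = 0.00445). The list summed to 333.3 to 338.1 CPM in high Cort, 377.8 to 396.5 CPM in ADX and 362.7 to 370.3 CPM in sham, and of its 11 genes Rax was under 10 fragments in every library. Of 12 markers of oligodendrocyte precursors and newly formed oligodendrocytes 2 fell, Enpp6 (-0.89 ± 0.14, adjusted p = 0.00202), a marker of newly formed oligodendrocytes, and Ptprz1 (-0.25 ± 0.05, adjusted p = 0.00566). That list summed to 1635 to 1732 CPM in high Cort, 1854 to 1890 CPM in ADX and 1795 to 1797 CPM in sham, but 6 of its genes were above 0 and 6 below it for high Cort over ADX, with a median of -0.02. Ptprz1 alone averaged 741.5 CPM in high Cort and 883.1 CPM in ADX. The precursor markers Pdgfra and Cspg4 were not called. Pdgfra had 166.5 and 176.0 CPM in high Cort and 162.5 and 162.6 CPM in ADX, and Cspg4 75.7 and 73.1 CPM against 66.5 and 71.5 CPM.

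Of 11 endothelial markers 6 fell in high Cort relative to ADX (Kdr, Cdh5, Cd34, Tie1, Eng and Cldn5). Their sum was 405.1 to 419.7 CPM in high Cort, 473.7 to 490.5 CPM in ADX and 486.2 to 495.8 CPM in sham. None of 11 microglial markers was called, and they summed to 290.7 to 320.0 CPM in high Cort, 341.8 to 342.3 CPM in ADX and 335.3 to 346.4 CPM in sham. Of the 16 blood and immune markers 8, among them Cd3e and S100a8, were under 10 fragments in every library. That list summed to 57.6 to 59.9 CPM in high Cort, 57.2 to 59.7 CPM in ADX and 67.7 to 79.9 CPM in sham, and 1 of its genes rose (Cd163) and 1 fell (Ptprc). Of the 17 thalamus markers 15 were above 0 and none was called, with sums of 3878 to 3981 CPM in high Cort, 2515 to 2800 CPM in ADX and 3215 to 4094 CPM in sham. Of 8 PVH neuron markers 6 fell, and their sum was 473.1 to 516.4 CPM in high Cort, 801.5 to 806.2 CPM in ADX and 582.9 to 823.2 CPM in sham.

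ADX against sham asked what loss of adrenal hormones changed. Top2a was the one member called, 1 of 39 (2.56%) against 0.233% of all genes tested, and it rose 2.93-fold to 2.95 ± 0.372 CPM in ADX, against 1.00 ± 0.0311 CPM in sham (1.55 ± 0.26, adjusted p = 0.0244). Its call was lost without the second sham library (adjusted p = 0.154), the first ADX library (0.117) or the second ADX library (0.224), and with the thalamus score (1.8, adjusted p = 0.0536). DESeq2 called no member, and its filter on low means gave no adjusted p to 34 of the 39, Top2a included. At an unadjusted p under 0.05 there were 10 of the 39 members and 12.8% of all genes tested.

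Of the 16 mitosis genes 15 were above 0 in ADX over sham, with a median log2 fold change of 0.41, and the 39 members had a median of 0.18, against 0.00 over all genes tested. Both ADX libraries lay above both sham libraries in 19 members, an order that 22.2% of all genes tested showed, and below them in 4, against 25%. Mki67 stood at 0.55 ± 0.13 (adjusted p = 0.0944) and was called without the first sham library, where 2 members were. Cenpf stood at 0.70 ± 0.21 (adjusted p = 0.187). Cdkn1a stood at -0.37 ± 0.13 (adjusted p = 0.241) and Cdkn1b at -0.18 ± 0.05 (adjusted p = 0.182). None of the genes of the 4 further lists was called here. The thalamus markers were lower in ADX in 16 of 17, with a median of -0.52 and none called, and of the progenitor markers Fabp7 fell (-0.52 ± 0.09, adjusted p = 0.0314), while 7 of the 10 tested were above 0, with a median of 0.11.

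High Cort against sham, which shares its libraries with the comparisons above, asked what sustained excess changed. Ccnd2 fell 1.30-fold to 23.6 ± 2.51 CPM in high Cort, against 30.8 ± 0.897 CPM in sham (-0.38 ± 0.08, adjusted p = 0.0347), 1 of 39 members (2.56%) against 0.871% of all genes tested. The call was lost without the first high Cort library (-0.29, adjusted p = 0.484), the first sham library (0.0877) or the second sham library (0.204). The median over the 39 members was -0.07 and over all genes tested 0.01, and 11 of the 16 mitosis genes were below 0, with a median of -0.13. Top2a stood at -0.97 ± 0.37 (adjusted p = 0.408), Ccna2 at -0.82 ± 0.37 and Ccne1 at 0.21 ± 0.12. None of the genes of the 4 further lists was called. The same progenitor markers, Fabp7 (-1.06 ± 0.10, adjusted p = 6.44e-05) and Nes (-0.79 ± 0.09, adjusted p = 0.00042), were lower in high Cort than in sham, as were Enpp6, Kdr and Cd34.

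Supplemented ADX was compared with ADX and with sham to read the return of corticosterone. The supplemented ADX and both acute groups were taken to share a processing run of the authors, without sham and ADX. The sample titles name no run, and that of high Cort is not given here. No member was called in either comparison by edgeR or DESeq2. Of all genes tested 0.0311% were called against ADX and 0.0156% against sham. At an unadjusted p under 0.05 there were 5 members against ADX, where 4.05% of all genes tested were, and 4 against sham, where 10% were. Top2a averaged 1.71 ± 0.369 CPM in supplemented ADX, between ADX at 2.95 ± 0.372 CPM and sham at 1.00 ± 0.0311 CPM, and stood at -0.79 ± 0.23 over ADX (adjusted p = 0.785) and at 0.76 ± 0.28 over sham (adjusted p = 0.389). Mki67 stood at -0.27 ± 0.12 over ADX and 0.28 ± 0.13 over sham, and Cdkn1a at 0.38 ± 0.12 over ADX, with an adjusted p of 1 against ADX for both. Cenpf at 2.13 and 2.38 CPM overlapped ADX and lay above sham (0.63 ± 0.21, adjusted p = 0.35). The sum over mitosis genes without Aurkb was 36.8 and 38.5 CPM in supplemented ADX, 39.6 and 41.8 CPM in ADX, and 29.7 and 32.7 CPM in sham. With Aurkb it was 112.5 and 87.1 CPM in supplemented ADX, which overlapped the ADX and the sham libraries given above.

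The acute groups asked what a short exposure changed, and against sham the members called were the inhibitor Cdkn1b at both times, Mcm7 at 1 h and Ccne1 at 3 h, all lower. These comparisons with sham were taken to cross processing runs, whose part in the calls was not tested. Cdkn1b had 57.3 and 57.2 CPM in high Cort, 46.1 and 46.3 in 3 h acute, 48.2 and 45.7 in 1 h acute, 51.3 and 53.9 in supplemented ADX, 48.4 and 51.9 in ADX, and 55.4 and 58.2 in sham. The acute libraries were the 4 lowest, and high Cort overlapped sham. Cdkn1b was lower than in sham at 3 h (-0.30 ± 0.06, adjusted p = 0.00938) and at 1 h (-0.27 ± 0.06, adjusted p = 0.00777).

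At 1 h, 2 of 39 members (5.13%) were called, where 12.8% of all genes tested were (1641 genes), and at 3 h 2 of 39, where 7.98% were (1026 genes). Without the second sham library 144 genes were called at 1 h and 81 at 3 h, and in the sham and 1 h acute libraries alone 23 were (0.182%). DESeq2 called Cdkn1b alone at each time, where it called 7.6% of all genes tested at 3 h and 10.7% at 1 h. With the thalamus score in the model no member was called at either time, and Cdkn1b stood at -0.19 at 3 h (adjusted p = 0.722) and -0.14 at 1 h (adjusted p = 0.996). Thalamus markers were lower than in sham in 17 of 17 at both times, 3 of them called at 3 h and 11 at 1 h. PVH neuron markers rose in 5 of 8 at 3 h and 2 of 8 at 1 h. Of the progenitor markers Fabp7 fell and Dlx2 rose at both times, and Dcx and Sox11 rose at 1 h. The haemoglobin genes Hba2 and Hbb rose at 3 h, and the endothelial Flt1 and Kdr and the microglial Cx3cr1 fell at 1 h. The part of these markers in the calls was not tested. Cdkn1b also lost its call at 3 h without the second sham library (adjusted p = 0.104) or the second 3 h acute library (0.0757), and at 1 h without the second sham library (0.1) or the second 1 h acute library (0.0808).

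Mcm7, a helicase subunit whose gene holds the microRNA genes Mir106b, Mir25 and Mir93, had 18.1 and 17.5 CPM in high Cort, 15.3 and 16.6 in 3 h acute, 14.5 and 14.3 in 1 h acute, 16.4 and 15.8 in supplemented ADX, 14.9 and 15.9 in ADX, and 17.5 and 17.7 in sham. The 1 h acute pair was the lowest. It was 1.22-fold lower at 1 h than in sham (-0.29 ± 0.08, adjusted p = 0.0251), and the call was lost when any one of the 4 libraries was left out (adjusted p = 0.0589 to 0.152). Ccne1 was 1.39-fold lower at 3 h than in sham, at 4.82 ± 0.0738 CPM in 3 h acute and 6.68 ± 0.181 CPM in sham (-0.47 ± 0.13, adjusted p = 0.0408), and this call too was lost when any one of the 4 was left out (0.0770 to 0.224). With the thalamus score the adjusted p was 0.996 for Mcm7 and 0.842 for Ccne1.

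**Figure D5:**
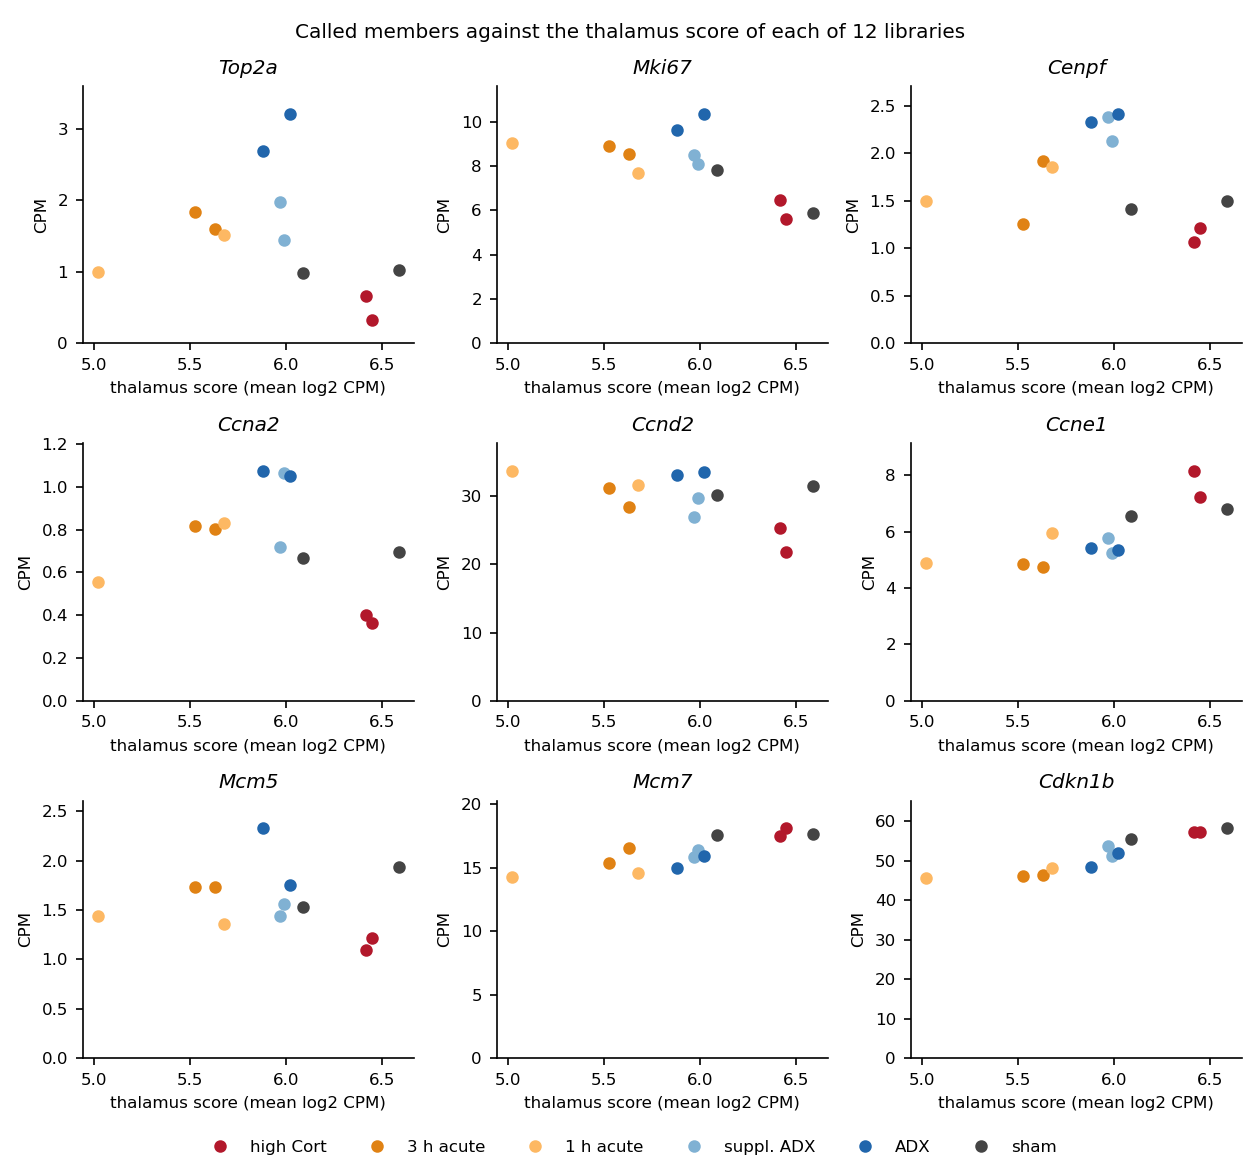
CPM of the 9 called members (vertical axis, starting at 0) against the thalamus score of the library (mean log2 CPM of 17 markers), 1 point a library, coloured by group. Cdkn1b is lowest in the 4 acute libraries, which have the lowest scores (5.02 to 5.68). Top2a is low in high Cort and in sham, and highest in ADX at scores of 5.88 and 6.02. In supplemented ADX, at scores of 5.99 and 5.97, Top2a has 1.45 and 1.97 CPM.

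Mitosis genes gave no call in the acute groups. Mki67 stood at 0.35 ± 0.14 at 3 h (adjusted p = 0.122) and Top2a at 0.77 ± 0.30 (adjusted p = 0.126), and the sum over mitosis genes without Aurkb was 34.9 and 35.2 CPM in 3 h acute, 35.6 and 32.2 CPM in 1 h acute, and 29.7 and 32.7 CPM in sham. With Aurkb it was 79.2 and 91.7 CPM in 3 h acute and 87.0 and 82.6 CPM in 1 h acute, all between the 2 sham libraries at 92.1 and 74.5 CPM. Without the first sham library, Mki67, Ccnd1 and Tyms were called beside Cdkn1b at 3 h, where 7.65% of all genes tested were called, and Mki67 and Tyms beside it at 1 h, where 11% were. Cdk1 reached 0.340 and 0.665 CPM at 1 h, on 11 and 12 fragments, against 0.235 and 0.146 CPM in sham (1.27 ± 0.54, adjusted p = 0.142).

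Against sham, E2f1 fell to 4.18 CPM at 3 h and 3.87 CPM at 1 h, against 7.596 CPM in sham (-0.87 ± 0.16, adjusted p = 0.00745, and -0.96 ± 0.15, adjusted p = 0.00327). Lig1, the DNA ligase of replication and repair, rose at both times (0.22 ± 0.05 each, adjusted p = 0.0201 at 3 h and 0.0121 at 1 h), and at 1 h Gins3 and Cit fell. Of the further inhibitors, Btg2 fell at both times (-0.39 ± 0.11, adjusted p = 0.0397 at 3 h, and -0.41 ± 0.11, adjusted p = 0.0219 at 1 h), Tob1 fell at 3 h, and Tob2 and Btg1 rose at 1 h. Of the p53 targets, Ccng1 fell at both times (adjusted p = 0.0159 at 3 h and 0.00579 at 1 h), and Plk2 and Gadd45a rose at 1 h. With the thalamus score, 4 of all 12856 genes tested were called at 3 h and 5 at 1 h.

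Set against supplemented ADX in place of sham, the acute groups gave no call among the members by edgeR or DESeq2. The share of all genes tested that was called was 0.00778% for 3 h acute and 0.0467% for 1 h acute, and at an unadjusted p under 0.05 there were 4 members at 3 h, against 12.5% of all genes tested, and 3 at 1 h, against 14.7%. Cdkn1b had the lowest adjusted p in both (-0.19 ± 0.06, adjusted p = 0.24 at 3 h, and -0.16 ± 0.06, adjusted p = 0.218 at 1 h). Between 3 h and 1 h no member was called either by edgeR or DESeq2, where 0.0233% of all genes tested were, and 2 members had an unadjusted p under 0.05, as did 10.6% of all genes tested. They were Mcm4, another helicase subunit, at -0.25 ± 0.08 (adjusted p = 0.244) and Ccnd1 at -0.19 ± 0.07 (adjusted p = 0.339). In the comparisons of the acute and supplemented groups DESeq2 gave no adjusted p to 7 to 35 of the 39 members, except against ADX, where all had one.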

How the data were processed

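Per the file headers each deposited table holds 1 library with raw fragments, scaled fragments and FPKM per gene, in the layout of Cuffdiff. The deposited raw fragments are unscaled expected counts. They were rounded where not whole, which touched 233 genes (0.751% of values) and 0 members. The deposited FPKM, taken to be scaled by the authors in separate runs, were not compared between groups. They were used for levels in sham and for the passenger complex. The deposited scaled fragments, a signal scaled by the authors, were not used. Per the submitters' processing notes the build was rn6 and the tools were TopHat2 2.1.1, Cufflinks 2.2.1 and CASAVA 1.8.2. What each did, the annotation and the strand of counting: not given in the sources used here.

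In R 4.3.3, edgeR 4.0.16 kept 12856 genes (filterByExpr, minimum count 10, minimum total 15), scaled by TMM and fitted all 12 libraries in 1 quasi-likelihood model, robust, with 6 group coefficients (6 residual degrees of freedom). Tests were 2-sided, Benjamini-Hochberg adjusted over all genes tested, and called under 0.05. The steps were checked on simulated data. CPM use TMM library sizes, and log2 CPM a prior count of 2. Alternatives were RLE size factors, no filter or a strict one (CPM of at least 1 in at least 4 libraries), DESeq2 1.42.0, the libraries compared only, a replicate block, the thalamus score as a covariate, and each library left out.

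The members and lists were chosen with earlier results of these data known. All members are accounted for, libraries are given for members called or at the ends of a role's levels, and genes of the further lists are named where called. Promoters and overlapping genes were matched by symbol in RefSeq GRCr8 tables; 15 members overlap another annotated gene, of the called ones only Mcm7.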

Additional observations from a re-analysis of the deposited data

How the results depend on the processing

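Of 141 gene values with an adjusted p under the alternatives 85 kept the call, 56 lost it and 0 reversed, and 1 further value had no adjusted p. Top2a and Ccnd2 in high Cort over ADX kept it in all 11. Ccna2 had 10 values there, as it did not pass the strict filter on low counts. Of 73 counts in comparisons with a call 40 stayed within 1.5 times, and the other 55 counts were 0 against 0. With the thalamus score, high Cort against ADX gave 3 members (7 without it), ADX against sham 0 (1), 1 h acute against sham 0 (2), 3 h acute against sham 0 (2) and any difference among groups 1 (6). In the libraries compared only, high Cort against sham gave 0, 1 h acute against sham 0 and 3 h acute against sham 1. DESeq2 gave 4 for high Cort against ADX, 0 for ADX against sham, 1 for 1 h acute and 1 for 3 h acute. Leaving out 1 library, whose partner is then taken to vary as libraries of the other groups do, gave 2 to 3 for high Cort against ADX, 0 to 2 for ADX against sham, 0 to 1 for high Cort against sham, 0 to 3 for 1 h acute, 0 to 4 for 3 h acute and 3 to 8 for any difference. The cause was not tested.

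Replicate numbers gave little sign of pairing the libraries. Same-numbered libraries of 2 groups correlated at -0.19 to 0.1 in their deviations, with 1 of 15 pairs above 0.1 before rounding. With the replicate block, high Cort against sham gave 0 members, 3 h acute against sham 1, and high Cort against ADX 6.

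Over all genes, calls fell to 270 of 12856 for high Cort against ADX with the thalamus score, against 742 without it, to 5 against 1641 for 1 h acute over sham, and to 4 against 1026 for 3 h acute over sham. Low fragment counts limit what Cdk1, Nusap1, Birc5, Bub1b and Ccnb2 show. The called members Top2a and Ccna2 also had a library under 10 fragments.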
